A study of Ophiorrhiza pumila with 6 samples.

Results

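Jasmonate synthesis and signalling was followed in hairy roots (HR) of *Ophiorrhiza pumila*, a camptothecin-producing plant, through the contigs of a *de novo* transcriptome assembly. A contig was taken when its annotated description contained, in any case of letters, lipoxygenase, allene oxide, 12-oxophytodienoate, opc-8, jasmon, jaz at the start of a word, tify or coronatine, and when it was not annotated as MYC2. This held for 45 of 59855 contigs, which belong to 34 of 47425 assembly genes, and 0 contigs had to be left out as MYC2. The contigs have no genome coordinates, so each is named by its identifier in the assembly. By role they are 10 lipoxygenase (LOX) contigs, 3 allene oxide synthase (AOS) contigs, 3 allene oxide cyclase (AOC) contigs, 7 contigs of 12-oxophytodienoate reductase (OPR), 1 contig of OPC-8:0 ligase, 13 JAZ or TIFY contigs, 1 contig of COI1 and 2 contigs of methyl jasmonate esterase. A further 3 contigs encode proteins with a lipoxygenase homology domain, which are not lipoxygenases. The last 2 are calcium-activated outward-rectifying potassium channels, taken only because the word "rectifying" contains the letters tify. With both channels set aside, 43 contigs remain.

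Jasmonates are lipid hormones that plants make from alpha-linolenic acid. In the plastid a 13-lipoxygenase, allene oxide synthase and allene oxide cyclase act in turn to give 12-oxophytodienoic acid, which is reduced by an OPR of the OPR3 type in the peroxisome, activated by OPC-8:0 CoA ligase and shortened by beta-oxidation. The conjugate of jasmonic acid with isoleucine joins the F-box protein COI1 to JAZ repressors, members of the TIFY family, which are then degraded so that MYC factors can act. JAZ genes and several synthesis genes are themselves jasmonate-inducible in Arabidopsis, and in *Catharanthus roseus* jasmonate induces alkaloid genes through AP2/ERF factors of the ORCA type.

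The HR had been made with *Agrobacterium rhizogenes* and carried an RNA interference (RNAi) construct in the vector pGWB80, with hygromycin and kanamycin used for selection. GUSi, the control, carried a hairpin against the bacterial reporter gene GUS, ERF1i one against *OpERF1*, and ERF2i one against *OpERF2*, both AP2/ERF transcription factors. RNA came from HR 3 weeks old, with no treatment. Each construct had 2 lines, and each line is a separate transformation event, carried as 1 clone and sequenced as 1 library. The control lines are GUSi-9 and GUSi-10, those against *OpERF1* are ERF1i-7 and ERF1i-19, and those against *OpERF2* are ERF2i-2 and ERF2i-3. Where a pair of values is given for a construct, the line with the lower number comes first. The spread within a line was therefore not measured. P-values rest on the spread between the 2 lines of a construct, pooled over the 3 constructs and drawn towards that of other contigs. The numbers 2 and 3 of the ERF2i clones are exchanged between the sample titles and the column names of the annotation table. The names used here follow the titles, and the tests between constructs do not depend on this choice. In values given without ERF2i-2 or without ERF2i-3, these names would change places.

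The 6 libraries held 11517610 to 13199946 read pairs assigned to contigs. The *OpERF1* contig (c15284_g1_i1) had 227 and 149 CPM (CPM are counts divided by library size, corrected by the TMM factor) in the control lines and 901 and 763 CPM in ERF2i. In ERF1i it had 4.04 and 21.9 CPM and was lower than in GUSi (log2 -3.86, adjusted p = 0.0313), a call lost without either GUSi or either ERF2i library, with an adjusted p of up to 0.11. The *OpERF2* contig (c17706_g2_i1) had 4.53 and 2.49 CPM in GUSi against 3.05 and 8.66 in ERF1i and 1.13 and 5.17 in ERF2i, so the ERF2i lines overlapped the control for the gene they target. Hairpin RNA carries part of the target's sequence, so its reads may be counted here too, which was not tested. ERF2i below means the libraries labelled so. Markers of root tissue, 116 contigs, summed to 2300 to 2970 CPM in every library, and 99 contigs of green tissue to 116 to 166 CPM in GUSi and ERF2i but 207 and 250 in ERF1i, with 44 to 48 of them at 0 in each library. Wound or defence markers, 54 contigs, ranged from 878 to 1120 CPM. The 7 Ri plasmid contigs from the right T-DNA summed to 0.534 and 0.238 CPM in ERF1i and to at least 895 elsewhere, while the 2 *rol* gene contigs of the left T-DNA were read in all libraries. The part of these differences in the results below was not tested.

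The jasmonate contigs were long and well expressed compared with the assembly as a whole. Their median length was 1687 bp against 560 bp for all contigs, and their median level in GUSi was 28 FPKM (fragments scaled by contig length and library size, here the mean of the 2 lines) against 2.81 FPKM for all contigs. The highest level was that of JAZ1 (c25603_g2_i1), at 554 FPKM in GUSi, which exceeded 99.9% of contigs. It was followed by the lipoxygenase homology domain contig c47415_g1_i1 at 416 FPKM, by OPR2 (c24555_g1_i1) at 215 FPKM and by LOX2 (c30417_g1_i1) at 212 FPKM. At the other end, 5 contigs had too few reads to be tested. These were TIFY 5A-like c27513_g1_i1, the only contig described as OPC-8:0 ligase (c46395_g1_i1), the OPR fragments c38144_g1_i1 and c20985_g1_i1, and the potassium channel c4969_g1_i1, with at most 17 counts in any library. The other 40 were tested with edgeR's quasi-likelihood test over 33315 contigs, and "rose" and "fell" are used for an adjusted p under 0.05.

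**Figure D1:**
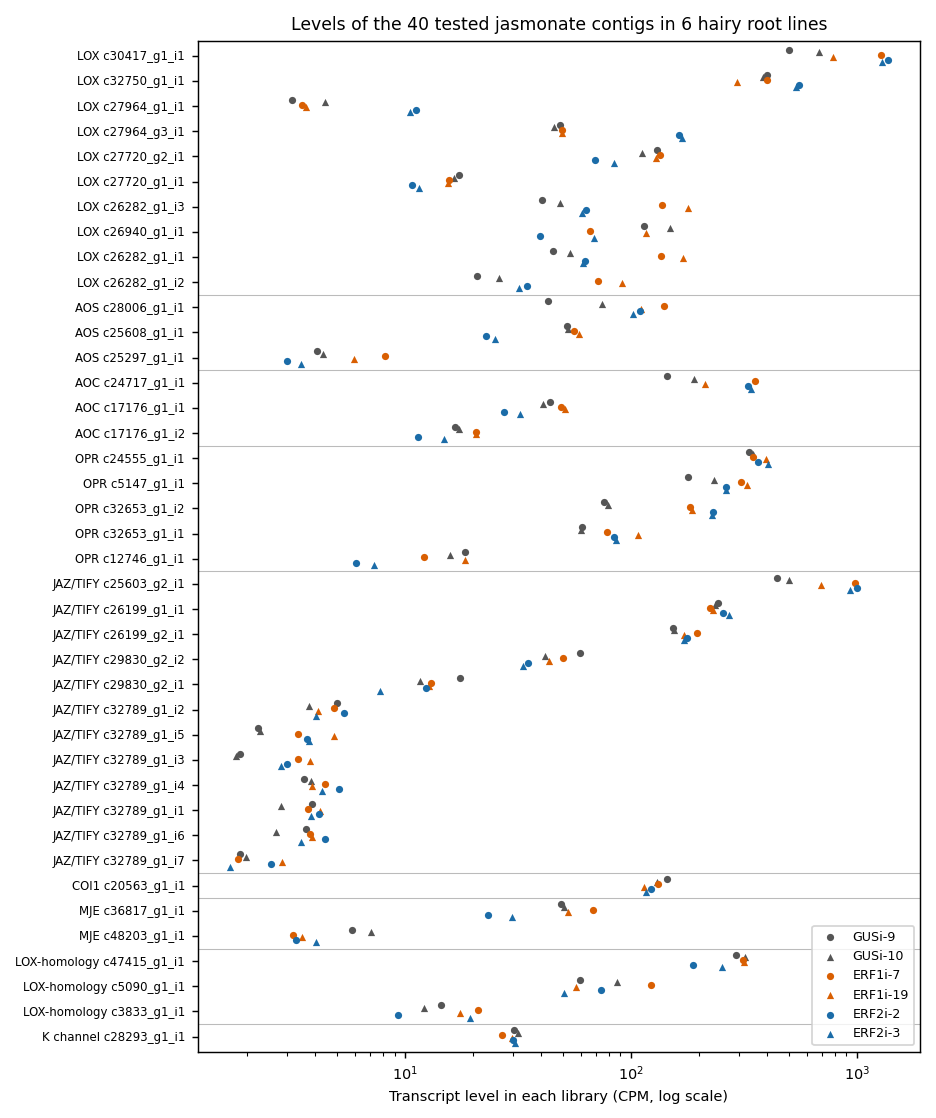
Transcript level (CPM, log axis) of each of the 40 tested contigs in each of the 6 libraries, grouped by role. Symbols in grey are GUSi, in orange ERF1i and in blue ERF2i, with a circle and a triangle for the lines of a construct. JAZ1 and LOX2 have the highest values of their roles, and the c27964 contigs stand apart in ERF2i and the c26282 contigs in ERF1i.

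In ERF1i, 4 of the 40 contigs rose and 0 fell. Over all tested contigs 2.66% rose and 1.4% fell in this comparison, 4.06% in either direction. The contigs that rose were 3 contigs of a lipoxygenase gene and 1 OPR contig. At an unadjusted p under 0.05 there were 13 higher and 1 lower, where 11.5% and 9.14% of all tested contigs were so. With DESeq2 9 rose and 0 fell, against 3.75% and 1.77% of all tested contigs. When ERF2i-2 or ERF2i-3 was left out, or only the 4 libraries of ERF1i and GUSi were fitted, 1 rose. Without ERF2i-2 the share of all tested contigs that rose was itself down to 0.102%. Without ERF1i-19 8 rose, against 2.7% of all tested contigs. LOX2, an AOS contig (c28006_g1_i1) and JAZ1 were called in ERF1i both with DESeq2 and without ERF1i-19, OPR3 and the OPR contig c32653_g1_i1 with DESeq2, and AOC c24717_g1_i1 without ERF1i-19. The median log2 change of the 40 was 0.25, against 0.00 over all tested contigs.

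In ERF2i, 6 of the 40 rose and 8 fell relative to GUSi, against 13.2% rising and 9.88% falling, 23.1% in all, among the tested contigs. Those that rose were LOX2, both c27964 lipoxygenase contigs, an AOC contig, an OPR contig and JAZ1. Those that fell were 3 LOX contigs, an AOS contig, an AOC contig, an OPR contig and both methyl jasmonate esterase contigs, so contigs of LOX, AOC and OPR moved in both directions. Without ERF2i-2, 3 rose and 1 fell, while the shares over all tested contigs dropped to 3.89% and 1.21%. In the 4 libraries alone 11 rose, against 16.8% of all tested contigs. More also rose without ERF1i-7 or ERF1i-19, where the share over all tested contigs was larger too. Fewer rose without GUSi-9 or ERF2i-3, and there that share dropped as well. Fewer fell without GUSi-9, GUSi-10 or ERF2i-3, and in each case fewer of all tested contigs fell too. The median log2 change of the 40 was 0.15, but without TMM scaling it was -0.07, where the median of all contigs shifted to -0.24, and 6 rose and 12 fell, against 8.81% and 21.9% of all tested contigs. The comparisons with GUSi share their control libraries and are given side by side. Against ERF1i, ERF2i had 3 contigs higher and 11 lower, with 10.6% and 9.01% of all tested contigs, 19.6% together. Fewer were called in both directions without ERF2i-2, where the shares over all tested contigs dropped too. More were higher without ERF1i-7, where the share over all tested contigs changed little.

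**Figure D2:**
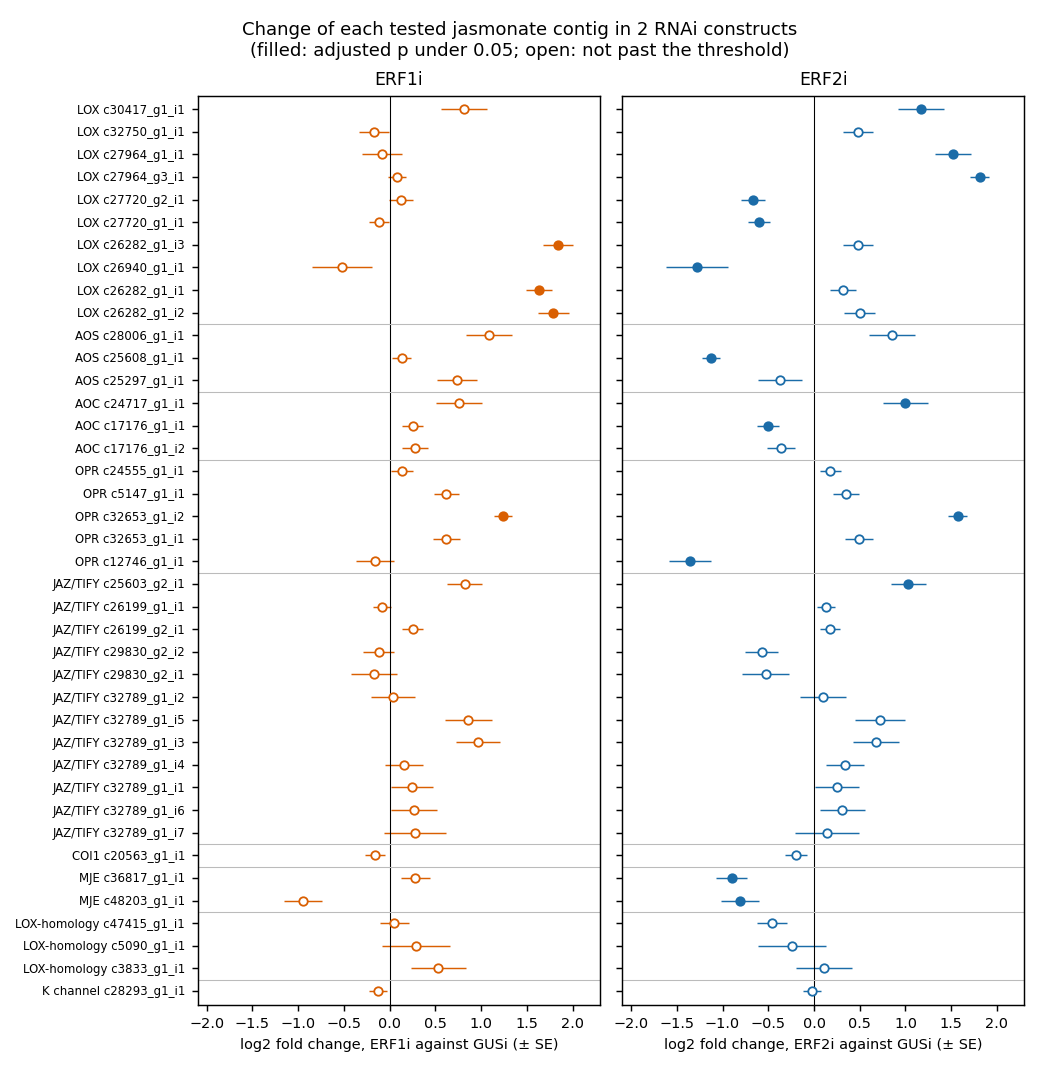
The log2 fold change of each tested contig against GUSi, with its SE as a bar, in ERF1i (left) and ERF2i (right). Filled points have an adjusted p under 0.05. ERF1i has 4 filled points, all to the right of 0, and ERF2i has 14, of which 6 lie to the right and 8 to the left.

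Summed over all 45 contigs, reads came to 3840 and 4240 CPM in GUSi against 6040 and 5110 in ERF1i and 5800 and 5790 in ERF2i. All 4 lines with an *OpERF* hairpin were above both controls in this sum. Most of the added reads were of LOX and JAZ contigs: LOX contigs summed to 1320 and 1520 CPM in GUSi against 2300 and 1840 in ERF1i and 2380 and 2330 in ERF2i. The JAZ and TIFY contigs summed to 943 and 967, 1490 and 1180, and 1510 and 1440 CPM in the same order.

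Lipoxygenases add oxygen to polyunsaturated fatty acids, and those that act at carbon 13 open the jasmonate route, while those that act at carbon 9 feed other oxylipins. LOX2 (c30417_g1_i1, 3157 bp), whose GO terms include linoleate 13S-lipoxygenase activity and the chloroplast, was the contig with the most reads of all 45. It was read at 502 and 678 CPM in GUSi against 1280 and 785 in ERF1i and 1370 and 1290 in ERF2i. All 4 lines were above both controls, and ERF1i-7 was near the ERF2i lines while ERF1i-19 was nearer to the controls. Of all 33315 tested contigs, both ERF1i lines were above both controls in 8452 and below both in 8407. For the ERF2i lines these counts were 11338 and 11383. Among the 40 jasmonate contigs they were 23 and 4 in ERF1i, and 19 and 13 in ERF2i. In ERF2i LOX2 rose 2.26-fold (log2 1.17, SE 0.25, adjusted p = 0.0185). In ERF1i its log2 difference was 0.81 (SE 0.25, adjusted p = 0.13). The call in ERF2i was lost without GUSi-9, ERF2i-2 or ERF2i-3, with an adjusted p of up to 0.12.

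Another chloroplast-type lipoxygenase (c27720_g2_i1, 2600 bp) took the other direction in ERF2i. Its levels were 131 and 112 CPM in GUSi against 135 and 130 in ERF1i and 69.5 and 84 in ERF2i. The ERF2i lines were both below the other 4 lines. The fall from GUSi was 1.59-fold (log2 -0.67, SE 0.13, adjusted p = 0.0141), and the difference from ERF1i was -0.78 (SE 0.13, adjusted p = 0.00974). The fall from GUSi was no longer called without GUSi-9 or ERF2i-2 (adjusted p of up to 0.117), nor was the difference from ERF1i without ERF2i-2 (0.0993). The contig c27720_g1_i1 (623 bp), best matched to a chloroplastic lipoxygenase 6, shares the component number c27720 and may be a piece of the same transcript. This contig, named after its values were seen, fell 1.51-fold in ERF2i (adjusted p = 0.0142), a call lost when any GUSi or ERF2i library was left out (up to 0.116). Linoleate 13S-lipoxygenase 2-like c26940_g1_i1 was read at 114 and 149 CPM in GUSi against 66.3 and 117 in ERF1i and 39.6 and 68.7 in ERF2i. It fell in ERF2i by 1.28 on the log2 scale (SE 0.34, adjusted p = 0.0349), with a wide spread within every pair of lines, and the call was lost when any GUSi or ERF2i library was left out (adjusted p of up to 0.204).

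The remaining LOX contigs had the 9-lipoxygenase type in their description, best hit or GO terms, and all had the GO term for linoleate 13S-lipoxygenase activity. For c27964_g1_i1 and c32750_g1_i1 this was the only GO term of lipoxygenase activity. Each of 2 assembly components changed under 1 construct. The 3 contigs of c26282_g1 carry GO terms for both linoleate 9S- and 13S-lipoxygenase activity and for lateral root formation. The one with the highest FPKM, c26282_g1_i3 (3022 bp), had 40.3 and 48.6 CPM in GUSi against 138 and 180 in ERF1i and 63.4 and 61 in ERF2i. In ERF1i it rose 3.58-fold (log2 1.84, SE 0.16, adjusted p = 0.00913), and it was lower in ERF2i than in ERF1i (log2 -1.35, SE 0.16, adjusted p = 0.00292). The ERF2i lines were above both GUSi lines with an adjusted p of 0.0661, and the difference was called without ERF1i-7 or ERF1i-19. The contigs c26282_g1_i1 and c26282_g1_i2 rose 3.1-fold and 3.47-fold in ERF1i, both with an adjusted p of 0.00913. The 3 contigs kept nearly the same shares of the gene's reads in all libraries, with 37.8% to 40.7% for c26282_g1_i3, and they are not independent measurements. Summed over the gene, levels were 106 and 127 CPM in GUSi against 344 and 439 in ERF1i and 164 and 156 in ERF2i, a log2 rise of 1.75 in ERF1i (SE 0.16, adjusted p = 0.0103). The 3 contigs lost the call in ERF1i, with an adjusted p of up to 0.0584, when ERF2i-2 or ERF2i-3 was left out or when only the 4 libraries of ERF1i and GUSi were fitted, which leaves fewer libraries to estimate the spread.

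The c27964 contigs were those that changed in ERF2i. The larger, c27964_g3_i1 (1979 bp), carries the GO terms of c26282_g1 and also protein binding. It had 48.5 and 45.8 CPM in GUSi against 49.8 and 49.8 in ERF1i and 163 and 169 in ERF2i. GUSi and ERF1i lay within a few CPM of each other and both ERF2i lines stood far above. The rise in ERF2i was 3.52-fold (log2 1.81, SE 0.10, adjusted p = 0.000336), and the difference from ERF1i was 1.73 (SE 0.10, adjusted p = 0.000435). A fragment of 273 bp, c27964_g1_i1, described as a 9S-lipoxygenase, rose 2.87-fold in ERF2i (adjusted p = 0.00329). Another contig of the component, c27964_g2_i1, is a lipoxygenase by its best hit only and so is not among the 45. It had 17.5 and 17.5 CPM in GUSi against 18.3 and 19.1 in ERF1i and 58.7 and 53.3 in ERF2i, a log2 rise of 1.68 (SE 0.11, adjusted p = 0.000433). The 3 contigs may come from 1 gene and are counted as contigs only. The last LOX contig, c32750_g1_i1, also named after its values were seen, was higher in ERF2i than in ERF1i by 0.66 (SE 0.16, adjusted p = 0.0327), a call lost without any library other than ERF1i-7 (up to 0.177), and its log2 difference from GUSi was 0.48 in ERF2i (adjusted p = 0.0721) and -0.17 in ERF1i (adjusted p = 0.601).

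**Figure D3:**
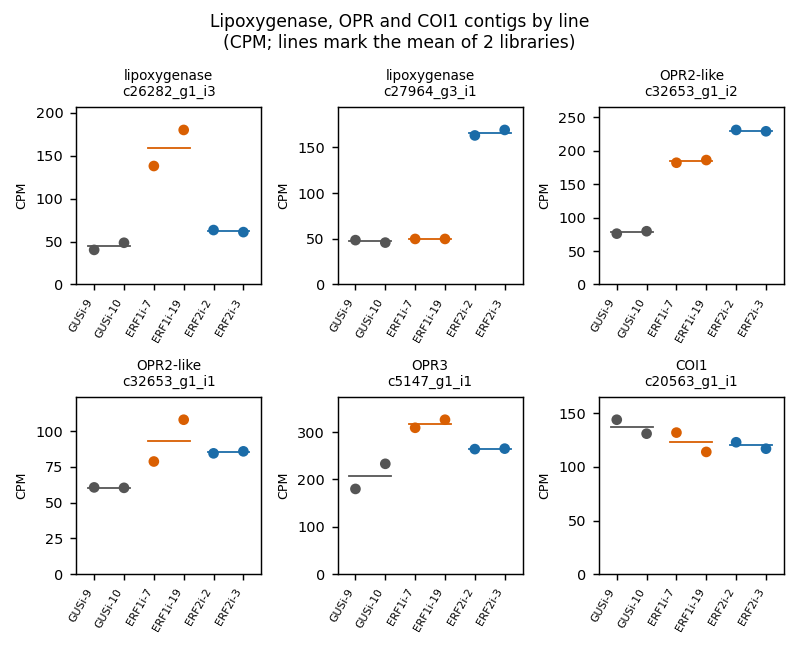
Level (CPM, linear axis from 0) in each library of lipoxygenase contigs c26282_g1_i3 and c27964_g3_i1, both contigs of the OPR2-like gene c32653_g1, OPR3 and COI1. Points are libraries and horizontal lines are means of 2 lines. c26282_g1_i3 stands at 138 and 180 CPM in ERF1i, c27964_g3_i1 at 163 and 169 CPM in ERF2i, and c32653_g1_i2 is above the control in all 4 *OpERF* lines.

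Allene oxide synthase, a cytochrome P450 of the CYP74 family, turns the hydroperoxide made by lipoxygenase into an unstable allene oxide. Its 3 contigs did not share a pattern. The AOS contig c25608_g1_i1 (2327 bp), annotated with allene oxide synthase activity and the response to wounding, had 52.1 and 53 CPM in GUSi against 55.9 and 58.8 in ERF1i and 22.9 and 25 in ERF2i. GUSi and ERF1i differed little, and both ERF2i lines were below all others. The contig fell 2.2-fold in ERF2i (log2 -1.13, SE 0.10, adjusted p = 0.000916), and in ERF1i the difference was 0.13 (SE 0.10, adjusted p = 0.528).

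The other long AOS contig, c28006_g1_i1 (2220 bp), had 43 and 74.7 CPM in GUSi against 140 and 111 in ERF1i and 110 and 102 in ERF2i. All 4 *OpERF* lines were above both controls, which differed widely from each other. Its log2 difference from GUSi was 1.09 in ERF1i (SE 0.25, adjusted p = 0.0629) and 0.85 in ERF2i (SE 0.25, adjusted p = 0.0501). Neither passed the threshold with contigs tested one by one, while both did with DESeq2, without GUSi-10 or without ERF1i-19. With counts summed per assembly gene the adjusted p in ERF2i was 0.0468. The short AOS contig c25297_g1_i1 (487 bp) had 4.1 and 4.34 CPM in GUSi against 8.16 and 5.96 in ERF1i and 3.02 and 3.48 in ERF2i. It was lower in ERF2i than in ERF1i (log2 -1.12, SE 0.23, adjusted p = 0.019), and neither construct passed the threshold against GUSi. The difference was no longer called without ERF2i-2 or ERF2i-3 (adjusted p of up to 0.144). The summed AOS level was 136 and 131 CPM in ERF2i, near that of GUSi-10, at 132, and above GUSi-9, at 99.2, with c28006_g1_i1 above and c25608_g1_i1 below both controls.

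Allene oxide cyclase closes the ring of the allene oxide to give 12-oxophytodienoic acid, and here too the contigs moved apart in ERF2i. The AOC contig c24717_g1_i1 (1472 bp) had 145 and 190 CPM in GUSi against 355 and 213 in ERF1i and 330 and 339 in ERF2i. As with LOX2, ERF1i-7 stood with the ERF2i lines and ERF1i-19 was close to the controls. It rose 2-fold in ERF2i (SE 0.25 on the log2 scale, adjusted p = 0.0292), and in ERF1i the log2 difference was 0.76 (SE 0.25, adjusted p = 0.141). The AOC contig c17176_g1_i1 (1418 bp) had 43.8 and 40.8 CPM in GUSi against 49.3 and 51.3 in ERF1i and 27.5 and 32.5 in ERF2i. This one fell in ERF2i 1.41-fold relative to GUSi (log2 -0.50, SE 0.12, adjusted p = 0.0256) and 1.68-fold relative to ERF1i (adjusted p = 0.00767). A shorter contig of the same gene, c17176_g1_i2, was also lower in ERF2i than in ERF1i (log2 -0.65, SE 0.15, adjusted p = 0.0257). Neither difference from ERF1i was called without ERF2i-2 (adjusted p of 0.0815 and 0.152), and the latter was lost without ERF1i-19 too. Both AOC calls against GUSi were lost when any GUSi or ERF2i library was left out, with an adjusted p of up to 0.148 for c24717_g1_i1 and 0.172 for c17176_g1_i1.

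**Figure D4:**
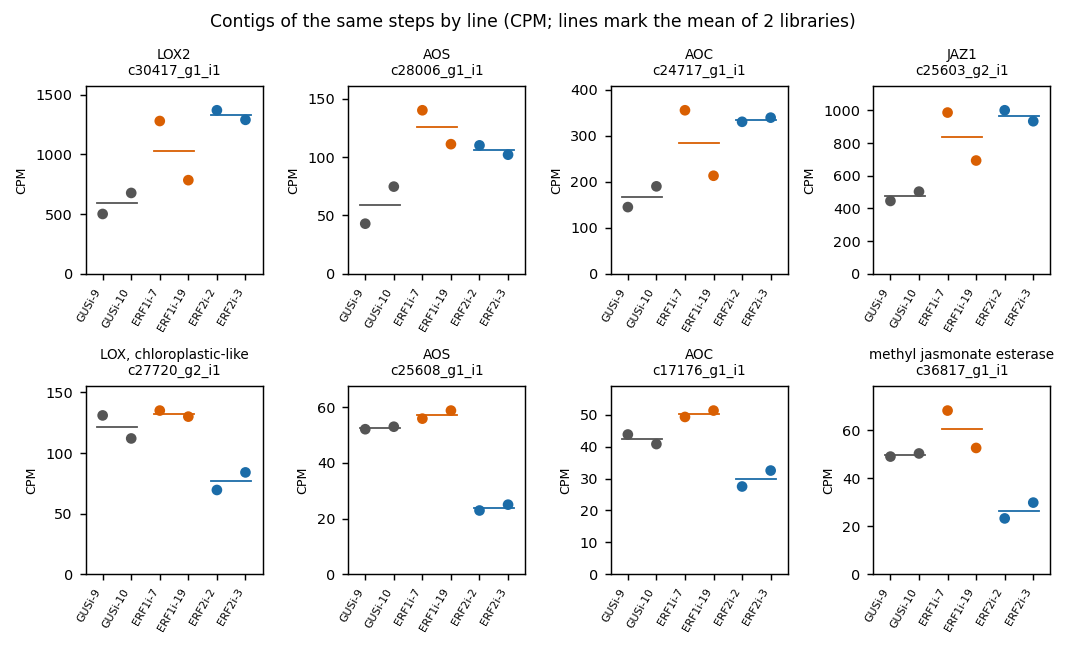
Level (CPM, linear axis from 0) in each library of 8 contigs, with the mean of 2 lines as a horizontal line. The upper row holds LOX2, AOS c28006_g1_i1, AOC c24717_g1_i1 and JAZ1, which were lowest in GUSi-9 and higher in ERF1i-7 than in ERF1i-19. The lower row holds LOX c27720_g2_i1, AOS c25608_g1_i1, AOC c17176_g1_i1 and methyl jasmonate esterase c36817_g1_i1, which were lower in both ERF2i lines than in the other 4.

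12-oxophytodienoate reductases fall into OPR3-type enzymes, which act on the jasmonate precursor, and OPR1/OPR2-type enzymes, which in Arabidopsis prefer other substrates. OPR3 (c5147_g1_i1, 1994 bp), annotated to the peroxisome and to jasmonic acid biosynthesis, had 180 and 233 CPM in GUSi against 309 and 326 in ERF1i and 264 and 265 in ERF2i. The log2 difference from GUSi was 0.62 in ERF1i (SE 0.14, adjusted p = 0.0628) and 0.35 in ERF2i (SE 0.14, adjusted p = 0.116). All 4 *OpERF* lines were above both controls, without a call. How often lines of 1 construct were so placed over all tested contigs is given with LOX2.

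The OPR2-like contig c32653_g1_i2 (1687 bp) was the only one of the 45 that rose under both constructs. Its levels were 76 and 79.6 CPM in GUSi against 182 and 186 in ERF1i and 231 and 229 in ERF2i, with little spread within a pair of lines. It rose 2.37-fold in ERF1i (log2 1.24, SE 0.10, adjusted p = 0.00783) and 2.96-fold in ERF2i (log2 1.57, SE 0.10, adjusted p = 0.000433). The difference between the constructs was 0.32 (SE 0.10, adjusted p = 0.057). Both calls held in every alternative tried, with adjusted p of up to 0.046 and 0.0103. The other contig of this gene, c32653_g1_i1 (1731 bp), had 60.7 and 60.4 CPM in GUSi against 78.8 and 108 in ERF1i and 84.5 and 85.9 in ERF2i, with adjusted p of 0.0731 and 0.0578. The share of the gene's reads given to c32653_g1_i2 was 55.6% and 56.9% in GUSi against 69.8% and 63.2% in ERF1i and 73.2% and 72.8% in ERF2i. How reads are divided between contigs of 1 assembly gene is an estimate, and over the whole gene the log2 rise was 1.01 in ERF1i (SE 0.10, adjusted p = 0.0125) and 1.22 in ERF2i (SE 0.10, adjusted p = 0.000991).

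A 450 bp OPR2-like contig, c12746_g1_i1, fell in ERF2i. It had 18.4 and 15.9 CPM in GUSi against 12.2 and 18.4 in ERF1i and 6.05 and 7.33 in ERF2i, a log2 difference of -1.36 (SE 0.23, adjusted p = 0.00792). Both ERF2i lines were below the other 4, and without ERF2i-2 the adjusted p was 0.0877. The most abundant OPR contig, OPR2 c24555_g1_i1, ranged from 334 CPM in GUSi-9 to 407 in ERF2i-3. It was called in neither construct, with log2 differences of 0.13 and 0.18 and an SE of 0.12 for each.

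OPC-8:0 CoA ligase activates the product of OPR3 for beta-oxidation. The contig described as OPC-8:0 ligase1 had 5 and 2 counts in GUSi against 17 and 8 in ERF1i and 1 and 8 in ERF2i, too few for a comparison. A contig that matches this enzyme by its best hit, c25361_g1_i1, was read at 214 and 212 CPM in GUSi against 223 and 180 in ERF1i and 173 and 183 in ERF2i. Its log2 difference was -0.08 in ERF1i (adjusted p = 0.788) and -0.26 in ERF2i (adjusted p = 0.189).

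JAZ proteins repress jasmonate responses until COI1 marks them for degradation, and their TIFY motif is shared with related proteins that do not bind COI1. Of the 13 JAZ and TIFY contigs, 12 were tested and 1 rose, which was JAZ1 in ERF2i. JAZ1 (c25603_g2_i1, 1090 bp) had 446 and 503 CPM in GUSi against 986 and 693 in ERF1i and 1000 and 933 in ERF2i. As with LOX2 and AOC c24717_g1_i1, ERF1i-7 was near ERF2i, and ERF1i-19 lay between ERF2i and GUSi. JAZ1 rose 2.04-fold in ERF2i (log2 1.03, SE 0.19, adjusted p = 0.0101), and in ERF1i its log2 difference was 0.82 (SE 0.19, adjusted p = 0.0608). The call was lost without GUSi-9, ERF2i-2 or ERF2i-3, with an adjusted p of up to 0.0842.

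The other JAZ and TIFY contigs were not called in either construct. JAZ2 (c26199_g1_i1) lay between 224 and 271 CPM in all 6 lines, with log2 differences of -0.08 in ERF1i (adjusted p = 0.73) and 0.13 in ERF2i (adjusted p = 0.391). TIFY 6B-like c26199_g2_i1 lay between 154 and 197 CPM. TIFY 8-like c29830_g2_i2 had 59.6 and 41.7 CPM in GUSi and 35.1 and 33.2 in ERF2i, with a log2 difference of -0.57 (adjusted p = 0.0591). The 7 contigs of the TIFY 4B-like gene c32789_g1 each had between 1.69 and 5.39 CPM. Summed, they gave 22 and 19 CPM in GUSi against 25.2 and 27.5 in ERF1i and 28.9 and 24.2 in ERF2i, with log2 differences of 0.36 and 0.37 and adjusted p of 0.193 and 0.0963. TIFY 5A-like c27513_g1_i1, whose best hit is a JAZ8 protein of cacao, had 0 counts in both GUSi libraries and at most 2 in any other. COI1 (c20563_g1_i1, 2336 bp), the receptor subunit, ranged from 114 to 144 CPM. Its log2 difference from GUSi was -0.16 in ERF1i (SE 0.11, adjusted p = 0.485) and -0.20 in ERF2i (SE 0.12, adjusted p = 0.243). Without TMM scaling, where the median of all contigs shifted as given above, COI1 was called lower in ERF2i.

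Methyl jasmonate esterase releases jasmonic acid from its volatile methyl ester, and both contigs fell in ERF2i. The contig c36817_g1_i1 (1197 bp) had 49.1 and 50.4 CPM in GUSi against 68.3 and 52.7 in ERF1i and 23.3 and 29.9 in ERF2i. Both ERF2i lines were below all other lines. It fell 1.87-fold relative to GUSi (log2 -0.90, SE 0.17, adjusted p = 0.0112) and 2.27-fold relative to ERF1i (log2 -1.18, SE 0.17, adjusted p = 0.00545). Neither call held without ERF2i-2 (adjusted p of 0.0993 and 0.0643), and the one against GUSi was lost without GUSi-10 too. The contig c48203_g1_i1 (999 bp) had 5.82 and 7.11 CPM in GUSi against 3.2 and 3.5 in ERF1i and 3.31 and 4.04 in ERF2i. Here both constructs lay below the control, with a fall in ERF2i (log2 -0.81, SE 0.21, adjusted p = 0.0354) and a log2 difference of -0.95 in ERF1i that missed the threshold (SE 0.21, adjusted p = 0.0592). The call on c48203_g1_i1 was lost when any GUSi or ERF2i library was left out. With all libraries kept it was lost with DESeq2 and without the low-count filter. Counts summed per assembly gene lost it too (adjusted p = 0.0504). Over the alternatives its log2 difference ran from -1.04 to -0.66.

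The contigs taken for their names alone were not called against GUSi. The lipoxygenase homology domain contig c47415_g1_i1 had 291 and 319 CPM in GUSi against 315 and 316 in ERF1i and 188 and 254 in ERF2i, with a log2 difference of -0.46 in ERF2i (adjusted p = 0.0735), which was called without ERF2i-3 or TMM scaling. The potassium channel c28293_g1_i1 ranged from 26.9 to 31.6 CPM.

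Genes that act before and after the steps above were looked up by description or best hit. Beside the counts in these lists, 2.66% of all tested contigs rose and 1.4% fell in ERF1i. In ERF2i 13.2% rose and 9.88% fell. Linolenic acid is set free by phospholipase A1 enzymes and made by omega-3 desaturases. Of 6 tested phospholipase A1 contigs, 2 rose in ERF1i, while 3 rose and 2 fell in ERF2i. Their log2 differences ran from -0.44 to 0.84 in ERF1i and from -1.05 to 1.25 in ERF2i. In each construct 3 were above 0 and 3 below. The chloroplastic-like c29015_g1_i1 had 43.7 and 43.2 CPM in GUSi against 69.9 and 85.2 in ERF1i and 98 and 108 in ERF2i, and it rose by 0.84 in ERF1i (SE 0.13, adjusted p = 0.0237) and by 1.25 in ERF2i (SE 0.13, adjusted p = 0.00125). Its companion contig c29015_g1_i2 rose by 0.72 and 1.04. The rises of both in ERF1i were lost without either GUSi or either ERF2i library (adjusted p of up to 0.113 and 0.152). Of 6 tested omega-3 desaturase contigs, 1 rose in ERF1i and 4 in ERF2i, all of the gene c31325_g1. The one in ERF1i was c31325_g1_i3, by 0.54 (adjusted p = 0.0437), a call lost when any of the 6 libraries was left out (up to 0.198). In ERF2i the log2 rises were 0.60 to 0.83, and c31325_g1_i3 alone held its call there without each library in turn.

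For peroxisomal beta-oxidation, 14 contigs were tested, and 3 rose in ERF2i, where 13.2% of all tested contigs rose. The acyl-CoA oxidase c41885_g1_i1, which catalyses the first step of a beta-oxidation round, had 297 and 261 CPM in GUSi against 351 and 427 in ERF1i and 998 and 1080 in ERF2i. Both ERF2i lines stood far above the other 4, and the rise was 1.90 on the log2 scale (SE 0.15, adjusted p = 0.000674). In ERF1i the difference was 0.48 (SE 0.15, adjusted p = 0.122), and ERF2i was higher than ERF1i by 1.42 (SE 0.15, adjusted p = 0.00208). The other beta-oxidation contigs that rose in ERF2i were of 3-ketoacyl-CoA thiolase, c31060_g1_i1 by 0.53 (adjusted p = 0.0197) and c31060_g2_i1 by 0.44 (adjusted p = 0.0241), both lost when any GUSi or ERF2i library was left out (up to 0.119 and 0.182). The best hit of c31060_g1_i1 is an acetoacetyl-CoA thiolase. Both thiolase contigs share the component number c31060 and are counted as contigs only. The study's list of jasmonic acid synthesis genes counts 3 more contigs of c31060_g2 as thiolase, although the annotation describes them as a receptor-like kinase, so they are not among the 14. Of these, c31060_g2_i4 rose in ERF2i by 0.44 (adjusted p = 0.0303), which was lost when any GUSi or ERF2i library was left out (up to 0.254). The log2 differences in ERF2i of c31060_g2_i2 and c31060_g2_i5 were 0.27 and 0.32 (adjusted p = 0.148 and 0.0884). The multifunctional protein c47445_g1_i1 had log2 differences of 0.24 in ERF1i and -0.11 in ERF2i (adjusted p = 0.352 and 0.573), and thiolase c39193_g1_i1 of -0.31 and -0.37 (adjusted p = 0.251 and 0.0874). The ABC transporter of the peroxisome (c31629_g1_i1), which imports the precursor, ranged from 129 to 166 CPM and was not called.

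The jasmonoyl-isoleucine conjugate is made by JAR-type synthetases and broken down by some CYP94 cytochromes P450 and some amino acid conjugate hydrolases. The JAR-like c27245_g1_i1, so named by its best hit, had 62.4 and 67.2 CPM in GUSi against 56.7 and 50.8 in ERF1i and 74.5 and 73 in ERF2i, and it differed between ERF2i and ERF1i (log2 0.46, SE 0.10, adjusted p = 0.0255), though not without ERF1i-19, ERF2i-2 or ERF2i-3 (up to 0.163). Of 13 tested hydrolase contigs, 1 rose in ERF1i, and 3 rose and 2 fell in ERF2i. Those that fell were c25557_g1_i1 (log2 -0.50, SE 0.13, adjusted p = 0.0338) and c28781_g1_i2 (-0.39, SE 0.10, adjusted p = 0.0362), both ILR1-like 4. Another contig of c28781_g1, c28781_g1_i1, has jasmonoyl-L-isoleucine hydrolase 1 as its best hit. Its log2 difference in ERF2i was -0.42 from GUSi (adjusted p = 0.0757) and -0.78 from ERF1i (adjusted p = 0.0134). How these values held in the alternatives was not tested. The hydrolase c27477_g1_i1 (ILR1-like 6) rose by 1.58 in ERF1i (SE 0.22, adjusted p = 0.0207), with 17.6 and 22.3 CPM in GUSi and 47.7 and 71.7 in ERF1i, and the call was lost without either GUSi or either ERF2i library (adjusted p of up to 0.0987). All 3 contigs of c30146_g1 (ILR1-like 5) rose in ERF2i, by 1.20 to 1.61, and only c30146_g1_i1 held that call without each library in turn.

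Of 10 tested contigs annotated as cytochrome P450 94A1, 2 rose in ERF1i, and 2 rose and 2 fell in ERF2i. Those that fell were c24807_g1_i1 (log2 -2.07, SE 0.31, adjusted p = 0.00519) and c24114_g1_i1 (-1.73, SE 0.43, adjusted p = 0.0294). Both were little read in ERF2i, at 1.32 and 1.88 CPM and at 0.756 and 0.939 CPM. The best hit of c24114_g1_i1 is a fatty acid hydroxylase, and which of the 10 contigs act on the conjugate was not tested. The most abundant, c23919_g1_i1, had 279 and 441 CPM in GUSi against 807 and 405 in ERF1i and 827 and 750 in ERF2i. Here ERF1i-19 lay between the controls, and the differences were not called (adjusted p = 0.272 in ERF1i and 0.0536 in ERF2i). The contig c37383_g1_i1 had 54.2 and 81.7 CPM in GUSi against 151 and 82.6 in ERF1i and 149 and 136 in ERF2i. It rose in ERF2i (log2 1.07, SE 0.30, adjusted p = 0.0432). From 1 and 2 counts in GUSi, c41094_g1_i1 rose by 4.70 in ERF1i (SE 0.67, adjusted p = 0.021). How the calls on c37383_g1_i1 and c41094_g1_i1 held in the alternatives was not tested. The contig c42193_g1_i1 was barely read in GUSi, at 0.359 and 0.427 CPM, and had 9.84 and 13.5 CPM in ERF1i and 1.13 and 1.22 in ERF2i. It rose by 4.86 in ERF1i (SE 0.30, adjusted p = 0.00523) and by 1.56 in ERF2i (SE 0.41, adjusted p = 0.035). The call in ERF1i held without each library in turn, and that in ERF2i was lost when any GUSi or ERF2i library was left out (adjusted p of up to 0.135).

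Contigs of NINJA-family, TOPLESS and mediator 25 proteins, and of genes known as jasmonate outputs in tomato or Arabidopsis, were mixed. In ERF2i 18.8% of tested contigs on the former list and 23.8% of the output contigs were called, against 23.1% of all tested contigs. Of 32 tested contigs of NINJA-family, TOPLESS and mediator 25 proteins, 4 rose and 2 fell in ERF2i, among them mediator 25 (c25242_g1_i1), which rose by 0.51 (SE 0.10, adjusted p = 0.0141), a call lost when any GUSi or ERF2i library was left out (up to 0.127). Of 21 tested contigs of proteinase inhibitors, polyphenol oxidases, threonine deaminase and tyrosine aminotransferases, 1 rose in ERF1i, and 2 rose and 3 fell in ERF2i. The one that rose in ERF1i was the type-2 proteinase inhibitor c44727_g1_i1, with 38.2 and 35.6 CPM in GUSi against 97.5 and 244 in ERF1i and 28 and 35.9 in ERF2i (log2 2.21, SE 0.39, adjusted p = 0.0342). This call was lost without either GUSi or either ERF2i library (adjusted p of up to 0.15). The 3 that fell in ERF2i were cysteine proteinase inhibitors by description or best hit, c17804_g1_i1, c17952_g1_i1 and c17952_g1_i2. Their log2 differences ran from -1.86 to -0.72 (adjusted p of up to 0.0235). The 2 that rose there were tyrosine aminotransferase contigs of c26302_g1, by 0.71 and 0.51 (adjusted p = 0.0188 and 0.0472). How these calls in ERF2i held in the alternatives was not tested.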

How the data were processed

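Poly(A) RNA of 6 HR lines was made into strand-specific libraries and sequenced as paired ends by the authors, who aligned clean reads to an *O. pumila de novo* assembly with Bowtie 2.0 and estimated counts and FPKM per contig with RSEM (version not given in the sources used here), with descriptions from Blast2GO. The deposited expected counts (1 value was not whole) were rounded here, and the deposited FPKM, scaled by length and library size by the authors, serve for levels between genes. Contigs with low counts were dropped by filterByExpr of edgeR 4.0.16 (minimum count 10, minimum total 15), libraries were scaled by TMM (factors 0.909 to 1.08), and all 6 libraries in 3 groups were fitted with glmQLFit and glmQLFTest in R 4.3.3. P-values are two-sided and were adjusted by Benjamini-Hochberg over 33315 contigs. SE is the log2 change over the root of F. CPM are counts over library total and TMM factor. The fit was also run on simulated counts drawn with 1 common dispersion for all contigs, unlike the deposited counts. Of 100 changes of log2 1, it found 67 in ERF1i and 54 in ERF2i. Of 100 changes of log2 2, it found 95 and 94. Alternatives were DESeq2 1.42.0, limma-trend 3.58.1 on log2(FPKM + 1), other scalings and filters (a mean FPKM of at least 2, a log2 change of at least 1), counts summed per assembly gene, 4 libraries only and each library left out. Contigs were named when called (at most 6 for each role, by lowest p), when highest in FPKM for their role, or when in the study's jasmonic acid pathway list. Other contigs in the text, most of them on the lists of neighbouring steps, were named after their values were seen. The members and lists were chosen with earlier results of these data known, and the spelling of list patterns was fitted to the files. Reads divided between contigs of 1 gene are estimates. No contig sequences were used here.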

Additional observations from a re-analysis of the deposited data

How the results depend on the processing

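With 4 contigs higher in ERF1i than in GUSi and 0 lower, DESeq2 gave 9 higher, against 3.75% of all tested contigs. Counts summed per assembly gene gave 2 of 29 tested jasmonate genes higher, against 2.66% of all tested genes. The 4 libraries of both constructs alone gave 1 higher, where the share over all tested contigs was itself down to 0.0706%. Scaling by library totals gave 1 lower, against 1.86%. With 6 higher and 8 lower in ERF2i than in GUSi, the 4 libraries alone gave 11 higher, against 16.8% of all tested contigs. A log2 change of at least 1 left 3 lower, against 3.89%. The same minimum left 7 of the 11 contigs that were lower in ERF2i than in ERF1i, against 4.11% of all tested contigs. Scaling by library totals moved the median log2 change of the jasmonate contigs in ERF2i from 0.15 to -0.07 and that against ERF1i from -0.19 to -0.35. limma-trend on FPKM gave -0.06 for the former. The calls on single contigs turned direction in none of these fits, and beyond the smaller number of samples or genes in some of them the cause was not tested.

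When each library was left out in turn, the number higher in ERF1i ran from 1 to 8, and in ERF2i from 3 to 11 were higher and from 1 to 9 lower. Between ERF2i and ERF1i, 1 to 5 were higher and 3 to 11 lower. A lone line was then assumed to vary like the other constructs. Of the jasmonate contigs called, 1 of 4 in ERF1i, 4 of 14 in ERF2i and 4 of 14 between the constructs stayed called under every alternative. Among the named jasmonate contigs not called, 7 of 26 in ERF1i and 9 of 16 in ERF2i were called in some alternative. No paired analysis was possible because the groups share no line numbers.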
